A study of Homo sapiens with 6 samples.

Results

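The genes described here serve membrane contact sites, places where the endoplasmic reticulum lies close to endosomes, lysosomes, mitochondria or the plasma membrane, and the transfer of lipids across them. They were chosen by name, with earlier results of these data known. Of 49 names given, 45 matched a symbol in the gene table, 2 matched as older symbols (TMEM24 for C2CD2L and TMEM55A for PIP4P2), and 2 were second names of genes already chosen (ORP1 for OSBPL1A and PTPIP51 for RMDN3). This left 47 genes of 18358 in the table. RNA was sequenced in 6 libraries of ME180, an established cell line from a human cervical epidermoid carcinoma. In 3 libraries the cells carried a guide construct against VPS13C (labelled sgVPS13C, genotype VPS13C knockout), and in 3 they carried the vector (genotype vector). Cisplatin, a DNA-crosslinking platinum compound, was given to every culture at 2 µM over 48 h, and cells without cisplatin were not analysed here. The labels name neither a clone nor separate cultures for the replicates, so the spread behind each p-value is that among libraries and may be technical. RNA levels do not show whether the VPS13C protein was lost.

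VPS13C is a bridge-like protein with a long hydrophobic groove through which lipids can pass between membranes. It reaches the endoplasmic reticulum by binding VAPA and VAPB, membrane proteins that recognise a short peptide called the FFAT motif, and it reaches late endosomes and lysosomes through RAB7A. Some other lipid carriers use the same VAP anchors, among them CERT1, which carries ceramide. The OSBP-related proteins exchange sterols or phosphatidylserine against a phosphorylated phosphatidylinositol. Proteins with an SMP domain carry phospholipids while they hold the membranes together.

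Total counts per library ran from 14774065 to 15799149. VPS13C itself had 28.6, 18.6 and 23.7 CPM (counts scaled to a common library size) in the knockout libraries and 48.1, 30.1 and 35.0 CPM in the vector libraries. The groups did not overlap, but the log2 fold change of −0.67 (SE 0.22) missed the threshold of 0.05 (edgeR quasi-likelihood adjusted p = 0.0513), while the exact permutation test (two-sided) reached p = 0.1, its lower limit with 3 libraries per group. Without knockout replicate 1 or vector replicate 2 the adjusted p was 0.0482 and 0.0378 in the same edgeR test. Without knockout replicate 2 or 3 it was 0.0957 and 0.144, and without vector replicate 1 or 3 it was 0.0906 and 0.101. Epithelial markers (KRT5, KRT8, KRT18, EPCAM, CDH1, TP63 and DSP) were all present, with summed levels of 13960 to 16060 CPM in knockout and 9095 to 10920 CPM in vector libraries. The sum followed KRT5 (mean 11760 CPM in knockout and 6401 CPM in vector libraries). TP63 (510.1 and 346.8 CPM) and DSP (917.9 and 490.6 CPM) also had higher means in the knockout. KRT8 (890.3 and 1307 CPM), KRT18 (396.4 and 1168 CPM), EPCAM (103.5 and 170.8 CPM) and CDH1 (314.8 and 344.7 CPM) had lower means there. The summed levels of immune markers (PTPRC, CD3E, CD79A and CD14) stayed between 0.129 and 0.851 CPM in all libraries, with PTPRC and CD3E at 1 count each over all of them. Fibroblast markers summed to 47.0 to 50.3 CPM in knockout and 37.0 to 44.2 CPM in vector libraries, with COL1A1 at a mean of 44.9 and 41.0 CPM and DCN at 3.78 and 0.188 CPM. Endothelial markers summed to 21.7 to 24.7 CPM in knockout and 7.80 to 8.13 CPM in vector libraries, with VWF at a mean of 22.6 and 5.68 CPM. CDH5 went the other way, with 0.152 CPM in knockout and 2.27 CPM in vector libraries, and PECAM1 had 0 counts in the knockout. Their part in the results was not tested. Within each group, longer genes were relatively high in some libraries and low in others: the slope of log2 CPM per doubling of length was 0.13, −0.13 and 0.05 in knockout replicates 1 to 3 and 0.12, −0.12 and −0.06 in vector replicates 1 to 3.

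Contact site genes differed between the groups in both directions, with a share of calls close to that of all genes. Of 47 members, 46 passed the low-count filter and GRAMD1B did not. Among these 46, 8 rose (LRRK2, OSBPL5, PIP4P2, STARD10, PTPN1, XK, PI4KA and PITPNA) and 6 fell (OSBP2, MOSPD1, PDZD8, ESYT1, ANXA1 and RAB7A), while 32 were not called (edgeR quasi-likelihood adjusted p under 0.05 over all genes tested). That is 30.4% of the members, against 35.1% of all 13717 genes tested. A change of at least 2-fold was called for 5 members (10.9%) and for 12.3% of all genes tested. Both shares lay near those of all genes, so the count says nothing particular about these genes. The median log2 fold change was 0.07 over the members and 0.00 over all genes tested, and the median size of the change regardless of direction was 0.29 and 0.33. In bulk RNA a change in the make-up of the culture and in RNA per cell cannot be told apart. Groups did not overlap for 11 members above and 11 below, together 47.8%, against 48.5% of all genes tested. Without knockout replicate 3 the calls fell to 5 higher and 5 lower, and without vector replicate 3 to 5 higher and 3 lower. Over all genes tested the calls were 1551 higher and 1475 lower without the first of these libraries, and 1582 higher and 1521 lower without the second.

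**Figure D1:**
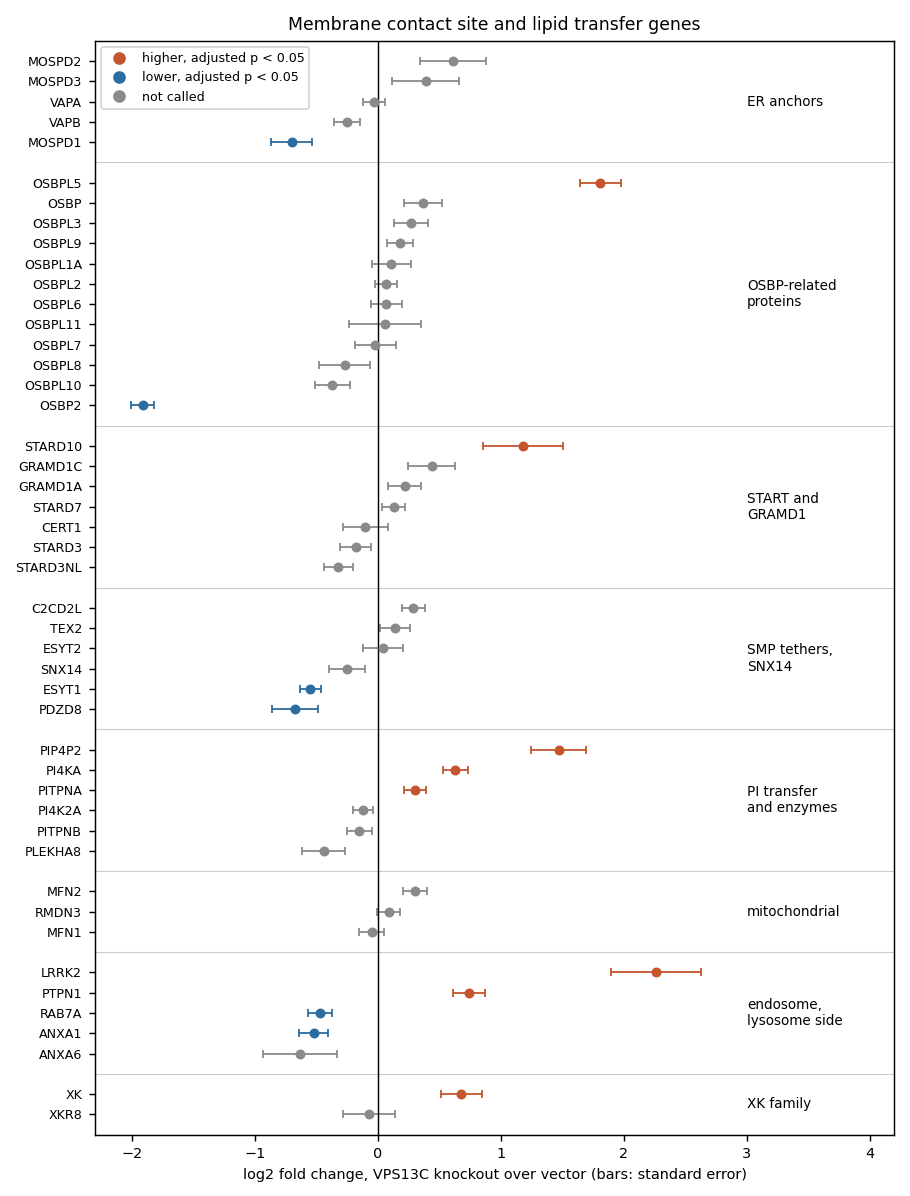
Log2 fold change of each tested member, VPS13C knockout over vector, with its standard error, ordered by role; colours mark genes higher, lower or not called at an adjusted p under 0.05. Most members sit within 0.5 of 0, while LRRK2 (2.26), OSBPL5 (1.81) and OSBP2 (−1.91) lie farthest out.

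The promoter windows of the genes farthest from 0 are shown as the sequence context of these changes. Windows came from RefSeq (GRCh38.p14), hold 250 bases before to 50 after the listed start, and are read on the gene's own strand. LRRK2 is at chr12:40224747-40225046 on the plus strand and OSBPL5 at chr11:3165261-3165560 on the minus strand. The OSBP2 window, chr22:30764003-30764302 on the plus strand, lies at a start inside the gene, which spans 30693782 to 30907813. Capitals mark every match, on either strand, to CACGTG (the E-box core of the lysosomal CLEAR element), TGANTCA (AP-1), GGGCGG (GC box), TCACNCCAC (sterol regulatory element) or CCAAT.
LRRK2: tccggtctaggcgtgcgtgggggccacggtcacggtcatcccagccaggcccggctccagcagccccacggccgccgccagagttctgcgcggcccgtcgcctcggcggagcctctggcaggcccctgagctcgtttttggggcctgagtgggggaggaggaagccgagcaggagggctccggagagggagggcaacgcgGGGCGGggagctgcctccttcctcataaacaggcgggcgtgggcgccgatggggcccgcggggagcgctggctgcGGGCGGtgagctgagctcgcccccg
OSBPL5: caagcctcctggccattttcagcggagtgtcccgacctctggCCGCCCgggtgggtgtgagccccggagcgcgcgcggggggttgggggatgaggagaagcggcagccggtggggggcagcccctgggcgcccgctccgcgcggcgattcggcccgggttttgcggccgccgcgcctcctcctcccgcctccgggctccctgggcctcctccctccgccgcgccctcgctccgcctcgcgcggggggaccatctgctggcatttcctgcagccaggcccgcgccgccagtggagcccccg
OSBP2: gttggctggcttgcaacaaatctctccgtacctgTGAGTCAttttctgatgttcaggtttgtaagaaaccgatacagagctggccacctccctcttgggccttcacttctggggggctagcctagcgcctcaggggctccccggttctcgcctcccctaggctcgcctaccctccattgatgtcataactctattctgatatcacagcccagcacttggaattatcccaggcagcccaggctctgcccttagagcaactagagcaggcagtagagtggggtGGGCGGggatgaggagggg
Only GC boxes matched in the LRRK2 and OSBPL5 windows, and the OSBP2 window held a GC box and the AP-1 letters. Among the 42 members with a window, GGGCGG was found in 32 (76.2%, against 69.2% of 11129 windows of tested genes) and CCAAT in 15 (35.7% against 36.5%). CACGTG was found in 7 members (16.7% against 9.88%), TGANTCA in 3 (7.14% against 4.86%) and TCACNCCAC in 0 (against 1.15%). The 7 windows with CACGTG belonged to genes that rose (STARD10, PI4KA), fell (PDZD8) or were not called (VAPA, OSBPL8, ANXA6, C2CD2L). A match is a string of letters and not evidence of binding.

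Of the 5 anchors on the endoplasmic reticulum 1 fell, MOSPD1, and 4 were not called, while 35.1% of all genes tested were called. VAPA (gene 9218) had 151.7, 139.5 and 148.5 CPM in knockout libraries and 146.2, 143.6 and 159.8 CPM in vector libraries. These ranges overlapped, and the log2 fold change was −0.03 (SE 0.09). VAPB (gene 9217) averaged 93.3 ± 7.82 CPM in knockout and 110.9 ± 6.19 CPM in vector libraries (SD, n = 3 each), without overlap, and its log2 fold change of −0.25 was not called (edgeR quasi-likelihood adjusted p = 0.102). VAPB was called with the length trend of each library removed (edgeR adjusted p = 0.0253). MOSPD1, MOSPD2 and MOSPD3 carry the same kind of peptide-binding domain. Of these, MOSPD1 (gene 56180, chrX:134887632-134915257) fell to 19.7, 15.5 and 20.1 CPM in knockout libraries, against 35.4, 25.2 and 29.6 CPM in vector libraries. The groups were separate, and the log2 fold change was −0.70 (SE 0.165, edgeR quasi-likelihood adjusted p = 0.0158). Without vector replicate 3 the edgeR adjusted p was 0.0519. MOSPD2, on the same chromosome, had a log2 fold change of 0.61 that was not called, with an SE of 0.27. Its knockout values of 38.1, 19.4 and 33.6 CPM overlapped the vector values of 24.5, 18.7 and 16.2 CPM.

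Among the 12 OSBP-related genes a single rise and a single fall stood beside 10 genes that were not called (35.1% of all genes tested were called). OSBP2, also called ORP4, a sterol-binding relative of OSBP, fell to 21.4, 20.9 and 22.5 CPM in knockout libraries, against 81.0, 81.6 and 82.1 CPM in vector libraries. The libraries of each group lay close together, with means of 21.6 ± 0.818 CPM in knockout and 81.5 ± 0.550 CPM in vector libraries (SD, n = 3 each), a fitted difference of 3.76-fold. The log2 fold change was −1.91 (SE 0.09, edgeR quasi-likelihood adjusted p = 3.18e-05), and the call held in all 14 alternatives tried. OSBPL5, also called ORP5, which moves phosphatidylserine out of the endoplasmic reticulum at contacts with the plasma membrane, rose. It had 17.3, 18.5 and 15.7 CPM in knockout libraries and 3.77, 5.64 and 5.01 CPM in vector libraries. Again the groups were far apart, with a log2 fold change of 1.81 (SE 0.17, edgeR quasi-likelihood adjusted p = 0.000333) that was called in all 14 alternatives. OSBPL5 spans chr11:3087107-3165310.

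The other OSBP-related genes ran from −0.37 (OSBPL10) to 0.37 (OSBP) in log2 fold change, with a median of 0.07. OSBP, the founding member that carries cholesterol to the Golgi, had 93.3, 68.7 and 87.3 CPM in knockout libraries and 74.2, 57.2 and 61.3 CPM in vector libraries, with overlap. OSBPL8, the closest partner of OSBPL5 at the plasma membrane, had a log2 fold change of −0.27 with an SE of 0.21. OSBPL1A, which acts on late endosomes with RAB7A, had 0.11 with an SE of 0.16. Only OSBPL10 among these 10 had groups that did not overlap, with 19.6, 16.2 and 18.8 CPM in knockout libraries and 27.6, 21.3 and 21.8 CPM in vector libraries (edgeR quasi-likelihood adjusted p = 0.0821).

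**Figure D2:**
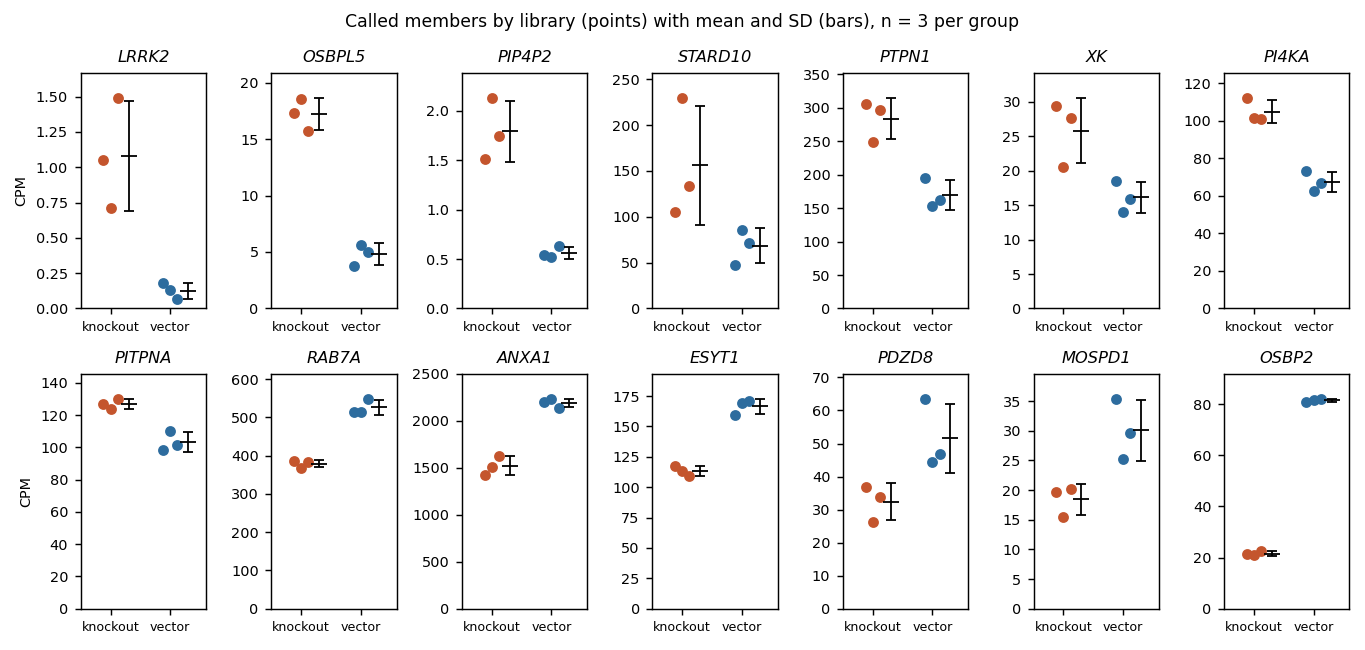
CPM in each library (points) with the mean (tick) and SD (error bar, n = 3 per group) for the 14 called members, VPS13C knockout left and vector right in each panel, each axis starting at 0. The groups are separate in every panel; the points of OSBP2 almost coincide within a group, while those of STARD10 in the knockout run from 105.1 to 229.1 CPM.

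Of the 8 START domain and GRAMD1 genes, 7 were tested and 1 was called, against 35.1% of all genes tested. STARD10 (gene 10809, chr11:72754729-72794047), which binds phosphatidylcholine and phosphatidylethanolamine, rose to 105.1, 229.1 and 133.8 CPM in knockout libraries, against 47.8, 86.1 and 71.8 CPM in vector libraries. Replicate 2 was the highest of its group on both sides, and it was also the replicate in which short genes were relatively high. With the length trend of every library removed, the log2 fold change was 1.20 and the call held. Without that step the log2 fold change was 1.18 (SE 0.33, edgeR quasi-likelihood adjusted p = 0.0284). The adjusted p of STARD10 was 0.0625 without knockout replicate 3 and 0.0828 without vector replicate 3 in the same edgeR test. STARD3, which tethers late endosomes to the endoplasmic reticulum, and CERT1 had log2 fold changes of −0.18 (SE 0.13) and −0.10 (SE 0.19). STARD3NL, a relative of STARD3 without the lipid-binding domain, had −0.32 (SE 0.12, edgeR quasi-likelihood adjusted p = 0.0717). STARD7, which takes phosphatidylcholine to mitochondria, had 0.13 (SE 0.09). GRAMD1B was at 7, 10 and 5 counts in knockout and 3, 3 and 3 counts in vector libraries. The ratio was 2.62, with exact binomial 95% limits of 1.16 and 6.45 that cover counting error only.

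Of the 6 genes for SMP domain tethers and SNX14, 0 rose and 2 fell, beside 17.8% higher and 17.4% lower of all genes tested. PDZD8 (gene 118987, chr10:117277274-117375440), an SMP domain protein of the endoplasmic reticulum that meets RAB7A on late endosomes, had 37.0, 26.2 and 33.9 CPM in knockout libraries and 63.6, 44.5 and 46.7 CPM in vector libraries. The groups did not overlap, although replicate 2 was the lowest on both sides. The log2 fold change of −0.67 (SE 0.19) was called (edgeR quasi-likelihood adjusted p = 0.0294). That call was lost without knockout replicate 2, knockout replicate 3 or vector replicate 3 (edgeR adjusted p = 0.0525, 0.088 and 0.0597). An alternative test, limma on log2(FPKM + 1), lost it as well (adjusted p = 0.0708). ESYT1 (gene 23344, chr12:56128267-56144674), an extended synaptotagmin that joins the endoplasmic reticulum to the plasma membrane when calcium rises, fell to 117.3, 113.4 and 109.5 CPM, against 159.3, 169.2 and 171.0 CPM in vector libraries. Its log2 fold change was −0.55 (SE 0.09, edgeR quasi-likelihood adjusted p = 0.00262), and all 14 alternatives called it. ESYT2 and TEX2, which carry the same domain, had 0.04 (SE 0.16) and 0.14 (SE 0.12). C2CD2L, known as TMEM24, was higher in every knockout library than in any vector library, and its log2 fold change of 0.29 just missed the threshold (edgeR quasi-likelihood adjusted p = 0.0523). SNX14, a sorting nexin anchored in the endoplasmic reticulum, had −0.25 (SE 0.15).

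Of 6 genes of phosphatidylinositol handling 3 rose and 0 fell, beside 17.8% higher and 17.4% lower of all genes tested. PI4KA (gene 5297, chr22:20707691-20858811), the kinase that makes phosphatidylinositol 4-phosphate at the plasma membrane, had 112.0, 101.8 and 100.9 CPM in knockout libraries and 73.2, 62.8 and 66.8 CPM in vector libraries. Its log2 fold change was 0.63 (SE 0.10, edgeR quasi-likelihood adjusted p = 0.00317) and was called in all 14 alternatives. PI4K2A, the kinase of endosomes and lysosomes, had −0.12 (SE 0.09) and was not called. PITPNA, which carries phosphatidylinositol and phosphatidylcholine, had 126.7, 124.0 and 130.2 CPM in knockout libraries and 98.1, 110.1 and 101.7 CPM in vector libraries. The log2 fold change of PITPNA was 0.30 (SE 0.09, edgeR quasi-likelihood adjusted p = 0.0373), a call lost when any 1 of the 6 libraries was left out (edgeR adjusted p from 0.0506 to 0.146). Library size only and no low-count filter also lost the PITPNA call (edgeR adjusted p = 0.0697 and 0.0523), as did limma on log2(FPKM + 1) (adjusted p = 0.0655). PIP4P2, a phosphatase of endosomal phosphoinositides on chromosome 8, rose at a low level: it had 23, 30 and 27 counts in knockout and 9, 8 and 10 counts in vector libraries. The ratio was 3.17 with a 95% counting interval of 2.03 to 5.10, and the fitted log2 fold change was 1.47 (SE 0.23, edgeR quasi-likelihood adjusted p = 0.00249). PITPNB, the relative of PITPNA, and PLEKHA8, a glycolipid carrier of the Golgi, had −0.15 (SE 0.10) and −0.44 (SE 0.18). PLEKHA8 and PI4K2A were lower in every knockout library than in any vector library, without a call (edgeR quasi-likelihood adjusted p = 0.0982 and 0.316).

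Genes on the endosome and lysosome side moved both ways. RAB7A (gene 7879, chr3:128726183-128814798), the small GTPase of late endosomes, fell to 385.9, 368.0 and 382.6 CPM in knockout libraries, against 514.4, 514.7 and 548.5 CPM in vector libraries. The groups were well apart, and the log2 fold change of −0.47 (SE 0.09, edgeR quasi-likelihood adjusted p = 0.0074) was called in all 14 alternatives. LRRK2 (gene 120892, chr12:40224997-40369285), a kinase that phosphorylates Rab GTPases and is known, like VPS13C, from inherited parkinsonism, was barely detected. It had 16, 10 and 23 counts in knockout and 3, 2 and 1 counts in vector libraries. The ratio of 8.74 had 95% counting limits of 3.74 and 24.9, beside a fitted log2 fold change of 2.26 (SE 0.36, edgeR quasi-likelihood adjusted p = 0.00336) that depends on the prior count. DESeq2 gave 3.11 and limma on log2(FPKM + 1), a scale that compresses low genes, gave 0.22.

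PTPN1, a tyrosine phosphatase held on the endoplasmic reticulum that reaches receptors on endosomes, rose to 305.3, 248.2 and 296.1 CPM in knockout libraries, against 194.3, 152.4 and 161.7 CPM in vector libraries (gene 5770, chr20:50510383-50585241). The log2 fold change of 0.74 (SE 0.13) was called in the main test (edgeR quasi-likelihood adjusted p = 0.0052) and in all 14 alternatives. ANXA1 (gene 301, chr9:73151865-73170393), a calcium-dependent membrane binder that tethers multivesicular bodies to the endoplasmic reticulum, fell to 1428, 1512 and 1627 CPM, against 2203, 2228 and 2141 CPM in vector libraries. Its log2 fold change was −0.52 (SE 0.12, edgeR quasi-likelihood adjusted p = 0.0121), and without vector replicate 3 the edgeR adjusted p was 0.0532. ANXA6, another annexin, was near the detection limit, with 10, 6 and 8 counts in knockout and 10, 18 and 15 counts in vector libraries. Its ratio of 0.597 had a 95% counting interval of 0.347 to 1.01.

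XK, a lipid scramblase of the plasma membrane known as the partner of VPS13A, rose to 29.4, 20.6 and 27.6 CPM in knockout libraries, against 18.5, 14.1 and 15.9 CPM in vector libraries (gene 7504, chrX:37685791-37732130). No library of the groups overlapped, and the log2 fold change was 0.68 (SE 0.17, edgeR quasi-likelihood adjusted p = 0.0205). The call of XK was lost without knockout replicate 1 or 3 (edgeR adjusted p = 0.0781 and 0.0921) and without vector replicate 2 or 3 (edgeR adjusted p = 0.0668 and 0.0771). It was also lost with library size only (edgeR adjusted p = 0.0505) and with limma on log2(FPKM + 1) (adjusted p = 0.0637). XKR8, the relative that exposes phosphatidylserine in dying cells, had −0.07 (SE 0.21). Of the mitochondrial contact genes 0 of 3 were called, against 35.1% of all genes tested. MFN2, a mitofusin, had 268.9, 235.1 and 259.4 CPM in knockout and 220.0, 198.1 and 203.7 CPM in vector libraries, without overlap. Its log2 fold change of 0.30 (SE 0.10) lay just outside the threshold (edgeR quasi-likelihood adjusted p = 0.0501). MFN2 stayed without a call in 8 of 14 alternatives and was called in the others. Its edgeR adjusted p ran from 0.00312 with the replicate block to 0.185 without knockout replicate 3. MFN1, the other mitofusin, and RMDN3, the mitochondrial partner of the VAP proteins, had −0.05 (SE 0.10) and 0.09 (SE 0.09).

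Levels per transcript length (TPM, the authors' length-scaled unit) spanned several orders of magnitude. ANXA1 stood first in both groups, with 1899 TPM in knockout and 2751 TPM in vector libraries on average, and RAB7A second with 281.8 and 391.9 TPM. STARD10 ranked 3 of 47 in the knockout and 8 in the vector, at 123.7 and 55.6 TPM. OSBP2 ranked 35 in the knockout and 12 in the vector, at 9.29 and 37.1 TPM, and PI4KA ranked 15 and 23. OSBPL5 was at 6.89 TPM in knockout and 1.92 TPM in vector libraries, below OSBP2 in both groups. VAPA, at 53.5 and 55.6 TPM, stood above VAPB, at 17.8 and 21.1 TPM. ANXA6, LRRK2 and GRAMD1B stayed under 0.5 TPM in both groups. The members' RNAs were long, with a median length of 3500 bases against 2772 bases over all genes tested. Replicate 2 was the lowest library in both groups for 21 of 46 members (45.7%), against 29% of all genes tested.

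**Figure D3:**
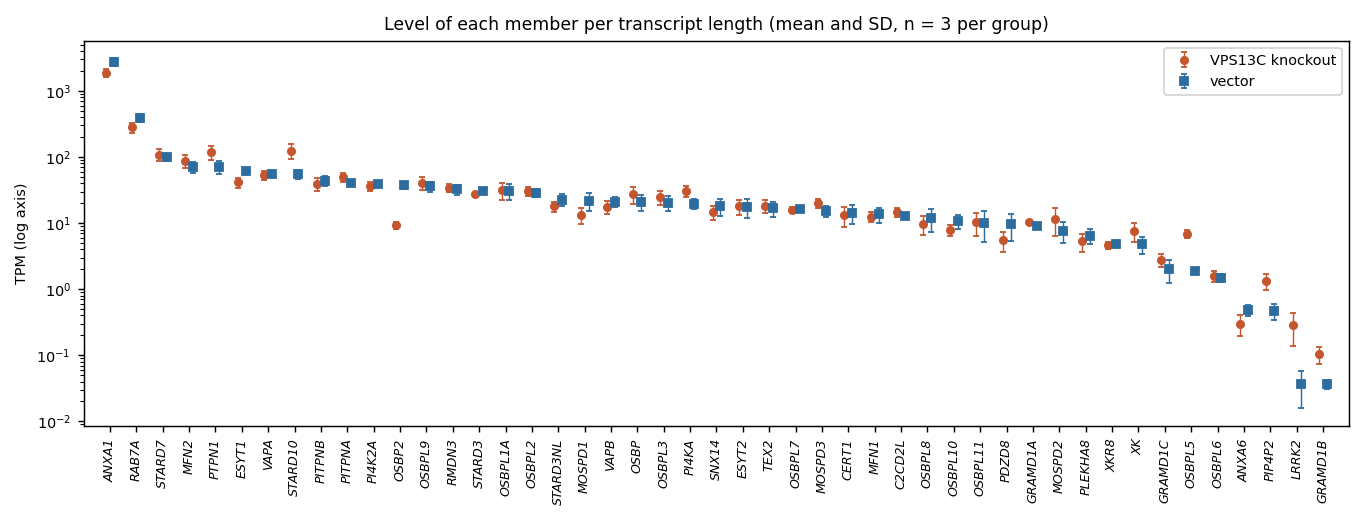
Mean TPM of all 47 members with SD (n = 3 per group) on a log axis, VPS13C knockout (circles) beside vector (squares), ordered by the vector mean. ANXA1 and RAB7A lead in both groups, and OSBP2 and OSBPL5 are set farthest apart among the genes above 1 TPM.

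Some members lie in chromosomal neighbourhoods whose genes were shifted together. The 40 nearest tested genes with a mean of at least 5 CPM, 20 on each side, had a median log2 fold change of −0.39 around RAB7A and 0.39 around XK, of the same sign as the member, and 55% and 42.5% of those neighbours were called, against 35.1% of all genes tested. Other neighbourhoods were shifted as much without a call for the member or against its sign. The neighbours of MOSPD2 had a median of 0.39, with 60% called, beside 0.61 for the gene. Those of GRAMD1C had a median of −0.54, with 57.5% called, beside 0.44 for the gene, and those of ANXA6 had 0.33 beside −0.63. Around OSBPL5 and STARD10, on the short and long arm of chromosome 11, the medians were 0.25 each, with 42.5% called around each. The neighbours of OSBP2 had a median of −0.14, with 45% called. The medians around LRRK2, PTPN1, PI4KA, ESYT1, ANXA1 and PDZD8 lay between −0.05 and 0.01, with shares called from 20% (LRRK2) to 47.5% (ANXA1). The share of 42.5% around XK was also found around PTPN1, whose neighbours had a median of −0.05. MOSPD1 fell while its neighbours had a median of 0.08. The part of these neighbourhoods in the changes of RAB7A and XK was not tested.

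**Figure D4:**
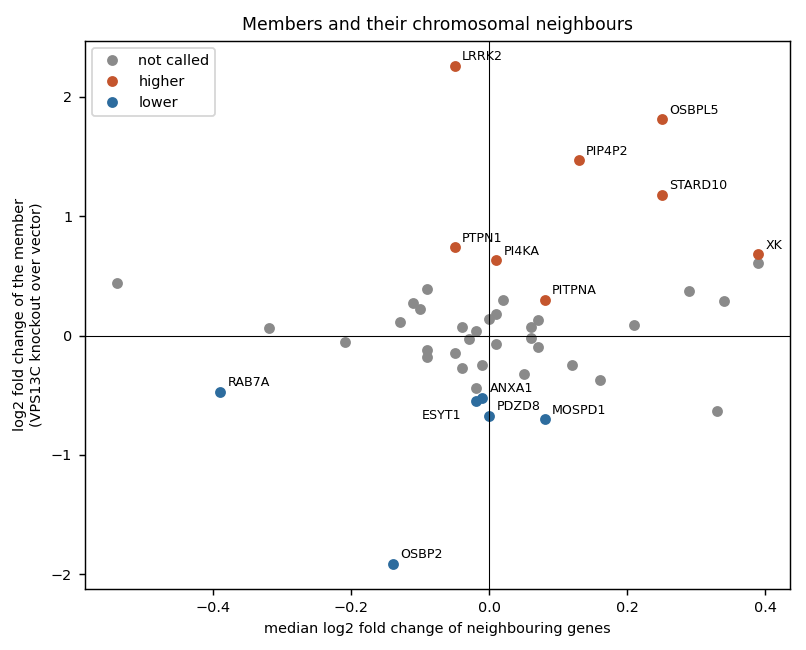
Log2 fold change of each tested member (VPS13C knockout over vector) against the median log2 fold change of its neighbouring genes. RAB7A (−0.47 with neighbours at −0.39) lies near the size of its neighbourhood and XK (0.68 with neighbours at 0.39) has the same sign, while OSBP2 (−1.91 at −0.14) and LRRK2 (2.26 at −0.05) lie far from it.

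Transcript balance within the members gave no call. The transcript table held 285 transcripts of these genes, and 36 members had at least 2 transcripts that passed the filter. Of these, 0 had a shift in usage (edgeR diffSpliceDGE, Simes adjusted p under 0.05), against 0.243% of all genes with such transcripts. Before adjustment 2 had a p under 0.05, GRAMD1C and SNX14, named after their values were seen. The share of all genes under that unadjusted limit is not given here, so these 2 are not set apart from other genes. In GRAMD1C the predicted transcript XM_017006649.1 had 15, 30 and 32 counts in knockout libraries and 0 in each vector library, where 0 of 212 reads allows a share of up to 1.42%. The SNX14 transcript XM_024446499.1 had 0 counts in every knockout library, where 0 of 1372 reads allows up to 0.219%, and 28, 20 and 27 counts in vector libraries. Adjusted p was 0.22 for GRAMD1C and 0.492 for SNX14 (edgeR diffSpliceDGE, Simes method). The split of single-end 50-base reads among overlapping transcripts is uncertain. The limits of 1.42% and 0.219% cover counting error only, not that split, and may be too tight. For OSBP2, NM_001282742.1 was the most abundant transcript on average, with 43.1% ± 15.8 of the gene's reads in knockout and 56.5% ± 12.5 in vector libraries (SD, n = 3 each). NM_030758.4 held 48.3%, 11.5% and 17.3% in knockout libraries and 9.38%, 2.22% and 5.56% in vector libraries, without overlap but with a wide spread within the knockout. These OSBP2 transcripts were picked after their values were seen, and the gene's usage test gave no call (edgeR diffSpliceDGE, Simes method, unadjusted p = 0.106).

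Further lists of the pathway, without the members above and also chosen with earlier results of these data known, moved both ways as well. Of 16 tested genes for bridge-like lipid transfer proteins and their scramblases, VPS13C included, 3 rose and 2 fell, with a median log2 fold change of 0.13. VPS13B and VPS13D rose with 0.76 and 0.61, and VMP1, an autophagy scramblase, fell to 193.8 ± 16.5 CPM in knockout, against 262.5 ± 2.16 CPM in vector libraries (SD, n = 3 each). In the list drawn up around other lipid carriers, 9 of 31 tested genes rose and 3 fell, with a median of 0.23. Whether each gene of that list carries lipid itself was not checked. PITPNM3, of the Nir family, rose to 85.3 ± 8.81 CPM in knockout, against 27.2 ± 3.07 CPM in vector libraries, and STARD4, a soluble cholesterol carrier, to 54.8 ± 9.26 against 18.4 ± 3.71 CPM (SD, n = 3 each). PITPNM1, which returns phosphatidylinositol to the plasma membrane, and ACOT11, a START domain thioesterase, rose with 0.71 and 0.93.

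The lists for contacts with mitochondria and the plasma membrane also moved both ways. Of 21 tested genes for contacts with mitochondria 3 rose and 3 fell, with a median of 0.09. ITPR2, a calcium release channel of the endoplasmic reticulum, rose to 32.8 ± 7.51 CPM in knockout, against 8.47 ± 1.79 CPM in vector libraries, while ITPR1, its relative, fell to 0.317 ± 0.158 against 2.24 ± 0.535 CPM (SD, n = 3 each). FUNDC1, a mitophagy receptor, rose with 0.80 and the presenilin PSEN2 fell with −1.53. At junctions with the plasma membrane 5 of 18 rose and 5 fell, with a median of 0.20. The calcium store sensors STIM1 and STIM2 rose with 0.68 and 1.09, and ESYT3, the third extended synaptotagmin, and CCDC88A fell with −1.19 and −2.08.

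In the list drawn up around VAP partners 2 of 17 rose (the sorting nexins SNX1 and SNX2, 0.46 and 0.47) and 1 fell (VPS35 of the retromer, −0.70), with a median of −0.04. Whether each gene of that list carries an FFAT-type motif was not checked. Of 20 phosphoinositide enzymes and their helpers 1 rose and 3 fell, with a median of −0.09. EFR3B, which holds PI4KA at the plasma membrane, rose with 1.10 at a low level (1.31 ± 0.227 CPM in knockout and 0.541 ± 0.0767 CPM in vector libraries, SD, n = 3 each), and PIP4K2A, PIP4K2C and VAC14 fell with −0.58, −0.37 and −0.54. Apart from VPS13C, every gene named in these lists had an adjusted p from 0.000183 to 0.0375 by edgeR's quasi-likelihood test. Set beside 17.8% higher and 17.4% lower of all genes tested, the lists are given as counts only.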

How the data were processed

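RNA-seq of 6 libraries, 3 of VPS13C knockout and 3 of vector ME180 cells, was used; per the labels' protocols, single-end 50-base reads came from the DNBSEQ platform. The build was hg38, per the submitters' processing notes. For aligner, counter and strand setting the entry is "not given in the sources used here", so overlapping and antisense genes cannot be separated. The authors deposited an expected count (estimated count, partly fractional), rounded here for all tests; TPM by the authors gave levels between genes, and FPKM by the authors an alternative and, with the counts, gene lengths. A normalized signal column deposited by the authors was not used.

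Of 18358 genes, 13717 passed filterByExpr (minimum count 10). After TMM scaling, edgeR 4.0.16 in R 4.3.3 gave robust quasi-likelihood F-tests (prior count 2), knockout against vector, with Benjamini-Hochberg adjustment over all genes and 0.05 as the threshold. Standard errors were derived from the log2 fold change and F. Counting intervals (95%) and the floor of 3 counts cover counting error only. Coordinates and promoter windows are from RefSeq (GRCh38.p14). Depth is 14774065 to 15799149 counts per library. The scripts were tested on simulated data.

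Members and lists were chosen with earlier results of these data known. The rule for named genes took VAPA, VAPB, RAB7A, PDZD8, LRRK2, XK, VPS13C, all called members, the most abundant member of role groups without a call, and up to 4 called genes per further list; the other members follow by role, and GRAMD1C, SNX14 and transcripts were chosen after their values were seen. Alternatives were RLE factors, library size only, DESeq2 1.42.0, no low-count filter, a minimum of 10 CPM in 3 libraries, a replicate block, limma 3.58.1 on log2(FPKM + 1), removal of each library's length trend (loess, span 0.4), and leaving out each library. Figures used matplotlib 3.10.9.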

Additional observations from a re-analysis of the deposited data

How the results depend on the processing

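Member calls (8 higher and 6 lower) became 13 and 10 with the length trend removed (3207 and 3146 over all genes) and 15 and 12 with the replicate number as a block; with the block all genes gave 4049 higher and 3890 lower calls. Same-numbered libraries correlated at 0.839, 0.887 and −0.442 in their deviations from the group means, and knockout replicate 3 at 0.623 with vector replicate 1. These values cannot settle whether the numbers pair the samples, since the deviations within a group are not independent. VPS13C passed with RLE factors (−0.68), DESeq2 (−0.68) and no low-count filter (−0.67), with adjusted p = 0.0493, 0.0144 and 0.0474 in that order (edgeR, or DESeq2 where named). It also passed with the length trend removed (−0.73) and the block (−0.67), with edgeR adjusted p = 0.000545 and 4.84e-05. With library size only (−0.71) and a minimum of 10 CPM (−0.67) it missed, at edgeR adjusted p = 0.0756 and 0.0585. On log2(FPKM + 1), limma gave −0.48 with adjusted p = 0.092. Leaving out each library gave −0.84 to −0.46 for VPS13C, 1551 to 2552 higher and 1475 to 2491 lower calls over all genes, 5 to 10 higher and 3 to 6 lower member calls, and a member median of −0.01 to 0.09. VAPA, never called, ran from −0.07 to 0.01 there. For the named members, 203 of 236 values kept direction and side of the threshold, 23 lost and 8 gained the call, and 2, both of VAPA, changed sign. The lost calls were those of PITPNA, XK, PDZD8, STARD10, ANXA1 and MOSPD1; VAPB and MFN2 gained theirs. LRRK2 and PIP4P2 have no value under the 10 CPM minimum. Members with shifted transcript usage stayed at 0 under each alternative run for them. The causes were not tested. Depth limits LRRK2, PIP4P2, ANXA6 and GRAMD1B most.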
